A study of Mus musculus with 2 samples.

Results

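The genes that gate the passage from G1 into S phase were followed in single cells of adult mouse back skin: the D-type cyclins Ccnd1, Ccnd2 and Ccnd3, their kinases Cdk4 and Cdk6, the kinase inhibitors Cdkn1a, Cdkn1b, Cdkn1c and Cdkn2b, and the transcription factor gene Myc. These 10 genes were found by symbol among the 31053 genes of the count tables, and each symbol matched 1 row. The study asked how extra miR-205 acts on hair follicle stem cells, and its single-cell series held 1 control mouse and 1 miR-205 induced mouse, with 1 10x Genomics library each. Both mice were sampled at postnatal day 53. They were gender matched, were labelled C57BL/6 and carried a K14-H2BGFP allele, a nuclear fluorescent reporter driven by a keratin 14 promoter. The induced mouse carried a miR-205 transgene under a tetracycline-responsive promoter, switched on by the Krt14-rtTA driver in keratin 14-expressing cells during 4 days of doxycycline chow. The sources disagree on the control: its characteristics field reads untreated, but by the extraction protocol doxycycline was fed to both mice. Sorting set the input of epidermal to follicle to dermal cells at 3:5:2. miR-205 itself was not analysed here, and the group labels were therefore not checked against it.

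D-type cyclins are short-lived partners of CDK4 and CDK6, and the active complexes phosphorylate the retinoblastoma family, which frees E2F factors to start S-phase genes. The Cip/Kip inhibitors p21 (Cdkn1a), p27 (Cdkn1b) and p57 (Cdkn1c) and the INK4 inhibitor p15 (Cdkn2b) restrain these kinases, while MYC, paired with MAX, drives genes for ribosome production, metabolism and growth. In the resting follicle the bulge holds slow-cycling stem cells and the hair germ beneath it holds primed progenitors that divide first when a new hair cycle begins, whereas the basal epidermis renews throughout life.

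The transgene product and the places where it could pair with the 10 transcripts are shown first, since they set 2 of the genes apart from the rest by sequence alone. The mature miRNA (RefSeq, GRCm38.p6, chr1:193507503-193507524, minus strand) is printed 5′ to 3′ with its seed, bases 2 to 8, in capitals. The sites are printed 5′ to 3′ as DNA on the transcript strand with the letters that match the seed in capitals.
mmu-miR-205-5p: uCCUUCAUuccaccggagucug
Ccnd2 site: tgaaacattgaATGAAGGaagctgacaca
Cdkn1b site: tttaaaaataaATGAAGGaatatagagat
The longest 3′ UTR annotated for each gene in GENCODE M1 (NCBIM37) was searched on the transcript strand for ATGAAGG, the complement of the seed. Of the 10 genes, 2 held it, each with 1 copy, against 10.4% of 19915 genes with an annotated 3′ UTR. The Ccnd2 window lies at chr6:127077269-127077297 on the minus strand and starts near base 3067 of a 3′ UTR of 4556 bases, and the Cdkn1b window lies at chr6:134873314-134873342 on the plus strand, near base 1233 of 3439. These were also the longest 3′ UTRs of the 10, which ran down to 466 bases in Myc. Ccnd1 held no full match and 3 copies of the shorter match to bases 2 to 7. A match of letters is a description and does not show that the miRNA binds there. The paper also captured mRNAs joined to miR-205 (CLEAR-CLIP), and its list of bound cytoskeleton and adhesion genes includes Ccnd2, Cdkn1b and Cdk6. Cdk6 held neither the full nor the shorter match in the 3′ UTR searched here. That list covers chosen gene categories, so absence from it says nothing about the other genes.

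Cells were assigned to populations by counts of marker transcripts, measured as unique molecular identifiers (UMIs), never by any of the 10 genes. Of 4545 control and 4264 induced barcodes, 3936 and 3628 were kept, and 3117 and 2640 of these carried keratinocyte levels of Krt14 and Krt5. Bulge-like cells, with Cd34 and Krt24, numbered 170 in the control and 260 in the induced library, and hair germ-like cells, with Lgr5 but without Cd34 or Krt24, numbered 70 and 69. Keratinocytes with Ly6a and little Krt1 or Krt10 numbered 574 and 354, those with Krt1 and Krt10 numbered 131 and 122, and cycling keratinocytes, taken out first by proliferation genes, numbered 146 and 93. Median depths ran from 10307 to 21830 UMIs per cell and were close between libraries within each population. In both libraries, markers that no gate used were raised at least 2-fold over the other keratinocytes for 3 of the names: 4 of 8 bulge markers, among them Krt15 and Postn, 4 of 7 hair germ markers, among them Gli1 and Lef1, and 11 of 12 cycling markers. The same held for 2 of 7 basal epidermal and 1 of 6 suprabasal markers, so those populations are called here by their gates, Ly6a-gated and Krt1/Krt10-gated. Of the bulge markers, Tgfb2 was lower than in the other keratinocytes of the control and induced library (log2 -1.13 and -2.38). Of the hair germ markers, Sox9 was lower (-0.58 and -1.02). Summed levels of 4 lists of melanocyte, antigen-presenting, dermal and vascular genes lay between 1.09 and 86.7 CPM (UMIs scaled to a population total of 1000000) in every population, partly because the gates bar many of these genes. The melanocyte list was highest in bulge-like cells of both libraries, at 86.7 CPM in the control and 65.1 CPM in the induced library. In bulge-like and hair germ-like cells of both libraries 4 of its 6 genes were at 0, among them Pmel, Tyrp1 and Tyr. The level there came from the remaining genes of that list. The libraries shared 11 barcodes, 1 of them between assigned cells.

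Levels are given as CPM with 95% Poisson intervals, and differences as the log2 ratio of induced over control. With 1 mouse per group there is no replicate and no test: all intervals cover counting error only, and mouse, library and induction cannot be told apart. A gene was counted as different when its level differed by 1.5-fold or more and it had at least 20 UMIs over both libraries.

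In bulge-like cells 5 of the 9 genes that met the count minimum were higher in the induced library and none was lower: Ccnd1, Ccnd3, Cdk4, Cdkn1b and Cdkn1c. Among all 8836 genes measured there, 14.2% were higher and 6.89% were lower by the same rule. The median log2 ratio was 0.61 over the 9 genes and 0.08 over all genes. In hair germ-like cells 1 of 8 genes was higher, Cdkn1b, and 2 were lower, Ccnd1 and Ccnd2, where 15.8% of 6647 genes were higher and 15.3% were lower. Both epidermal gates and the cycling cells showed less: 0 of 8 genes differed in Ly6a-gated cells (9.01% of all genes higher, 4.17% lower), 1 of 9 was higher in Krt1/Krt10-gated cells (9.87% higher, 6.52% lower), and 1 of 9 was lower in cycling cells (10.1% higher, 8.48% lower). Outside the bulge, the counts in all 4 populations, hair germ included, lie near these background shares. Among cells with under 5% mitochondrial UMIs, the bulge ratios of Ccnd3 (0.48) and Cdk4 (0.24) and the hair germ ratios of Ccnd1 (-0.38) and Cdkn1b (0.42) were within 1.5-fold, with unchanged direction.

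**Figure D1:**
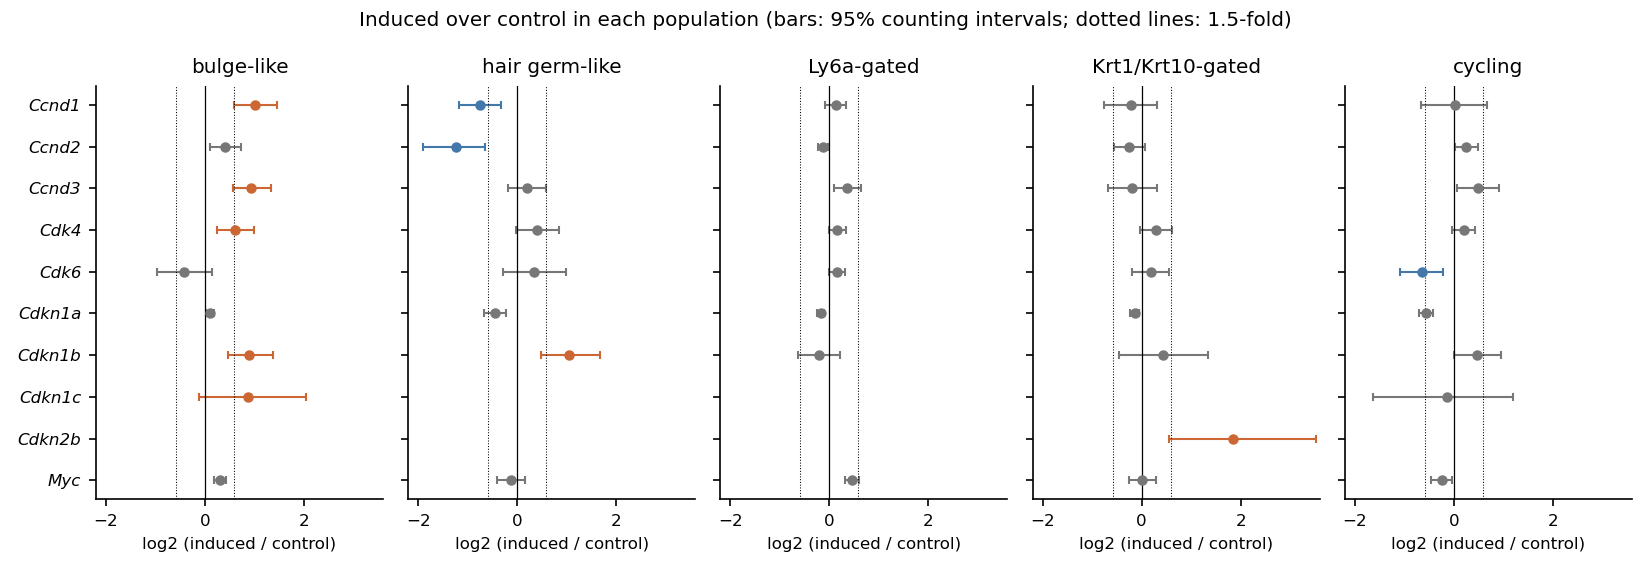
Log2 ratio of induced over control (x axis) for each gene (y axis) in the 5 populations, with 95% counting intervals and dotted lines at 1.5-fold; orange points are higher, blue points lower and grey points within 1.5-fold, and genes under 20 UMIs are not drawn. In bulge-like cells 5 points lie to the right of the line, whereas in hair germ-like cells Ccnd1 (-0.74) and Ccnd2 (-1.24) lie to the left and Cdkn1b (1.05) to the right.

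Ccnd1, which lies at chr7:144929931-144939831 (GRCm38.p6) and encodes the cyclin best known for linking mitogen signals to the cell cycle, differed in opposite directions in the neighbouring follicle compartments. In bulge-like cells it stood at 32.7 CPM (60 UMIs) in the control and 66.2 CPM (182 UMIs) in the induced library, a log2 ratio of 1.01 (0.59 to 1.46). The hair germ-like cells held 142 CPM (126 UMIs) and 84.4 CPM (82 UMIs), a log2 ratio of -0.74 (-1.17 to -0.33). The control level in the hair germ was 4.31-fold that of the bulge (log2 2.11, 1.66 to 2.58), and the interval of the gap in the induced library held 0 (log2 0.35, -0.05 to 0.73). Ccnd1 was lowest in cycling cells, at 17.1 and 17.3 CPM, and near the same level in both libraries in Ly6a-gated cells, at 48.9 and 53.4 CPM. Krt1/Krt10-gated cells held 28.5 and 24.4 CPM, and in the induced library their interval over cycling cells held 0 (log2 0.49, -0.15 to 1.18). The bulge ratio was 0.48 when every cell was thinned to 5000 UMIs and 0.58 when each marker minimum was lowered by 1 UMI, both under the 1.5-fold line, and 0.87 as a mean over cells.

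Ccnd2 (chr6:127125162-127152188) was foremost a gene of Ly6a-gated cells, at 282 CPM in the control and 258 CPM in the induced library, 2.45-fold over cycling cells in the control. Cycling cells followed with 115 and 137 CPM, above all remaining populations beyond counting error in both libraries. Ccnd2 in hair germ-like cells stood at 80.9 CPM (72 UMIs) in the control and 34.0 CPM (33 UMIs) in the induced library, a log2 ratio of -1.24 (-1.89 to -0.64), the lowest of the 8 ratios measured in that population. In bulge-like cells the direction was the other way, from 70.3 to 93.5 CPM (0.41, 0.10 to 0.73), which is within 1.5-fold and was -0.10 among cells under 5% mitochondrial UMIs. The 5 cells with most Ccnd2 held 44.4% of its hair germ UMIs in the control and 57.6% in the induced library, and with the Lgr5 minimum lowered to 1 UMI the ratio was -0.51.

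Ccnd3 (chr17:47505051-47599689) was highest in hair germ-like cells of both libraries, at 119 and 137 CPM, with a counting interval of the ratio that held 0. Its bulge level was 42.5 CPM (78 UMIs) in the control and 81.9 CPM (225 UMIs) in the induced library, a log2 ratio of 0.94 (0.57 to 1.34). The induced bulge thus lay between the control bulge and the hair germ. Ly6a-gated cells held 27.5 and 35.4 CPM, Krt1/Krt10-gated cells 32.6 and 28.6 CPM, and cycling cells 33.8 and 47.6 CPM, all within 1.5-fold.

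Taken as a family, the D cyclins differed between populations in which member made up the pool. Ccnd2 supplied 78.7% of D cyclin UMIs in control Ly6a-gated cells and 69.3% in control cycling cells, against 23.7% in control hair germ-like cells, where Ccnd1 supplied 41.4% and Ccnd3 34.9%. In the induced hair germ the share of Ccnd3 was 53.6% (47.2 to 60) against 34.9% (29.5 to 40.5) in the control, and that of Ccnd2 was 13.3% (9.34 to 18.2) against 23.7% (19.0 to 28.9). Their summed level stood at 146 CPM in the control bulge and 242 CPM in the induced bulge, and at 342 and 255 CPM in the hair germ. After thinning, 41.2% of 165 control and 60.1% of 253 induced bulge-like cells carried a UMI of any D cyclin. In the hair germ the corresponding shares were 63.8% and 66.7% of 69 cells each, so the lower sum there did not come with a lower share of cells carrying a D cyclin UMI.

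**Figure D2:**
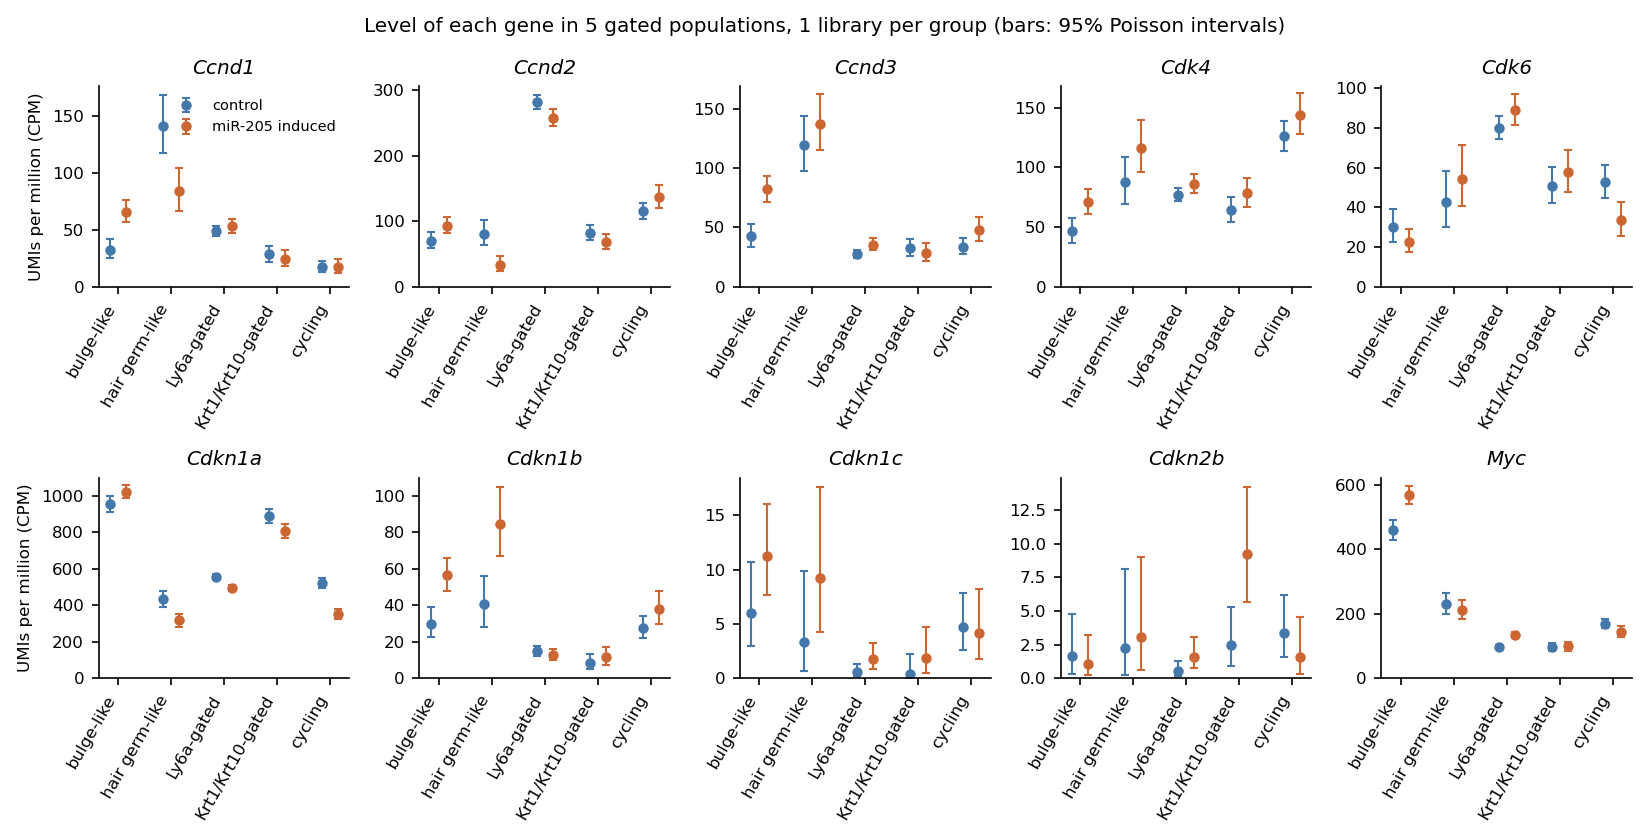
Level of each gene in CPM (y axis, linear and scaled per gene) in the 5 populations (x axis) of the control (blue) and induced (orange) library, with 95% Poisson intervals. Ccnd2 and Cdk6 peak in Ly6a-gated cells, Ccnd1 and Ccnd3 in hair germ-like cells, Cdk4 in cycling cells, and Cdkn1a and Myc in bulge-like cells of both libraries. In the induced library the peaks of Ccnd1 and Cdk4 are not beyond counting error over the next population.

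The kinase genes had separate patterns. Cdk4 (chr10:127063535-127067288) was highest in cycling cells, at 126 CPM in the control and 144 CPM in the induced library, and lowest in bulge-like cells, at 46.4 and 71.0 CPM. In the induced library the intervals of both steps to the next population held 0. They were 0.31 (-0.01 to 0.64) for cycling cells over the hair germ and 0.14 (-0.16 to 0.45) for Krt1/Krt10-gated cells over the bulge. The bulge difference, a log2 ratio of 0.61 (0.24 to 1.00), lay just past the 1.5-fold line, and scaling by a median-of-ratios size factor put it at 0.56, just inside. Hair germ-like cells held 87.6 and 116 CPM (0.40, -0.02 to 0.84), a ratio of -0.15 among cells under 5% mitochondrial UMIs. Ratios were positive in all 5 populations and under 0.3 in the epidermal gates and the cycling cells.

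Cdk6 (chr5:3341004-3531008) was highest in Ly6a-gated cells, at 80.0 and 89.0 CPM, and lowest in bulge-like cells, at 30.0 CPM (55 UMIs) and 22.6 CPM (62 UMIs). In the control the interval of the hair germ over the bulge held 0 (log2 0.52, -0.13 to 1.13). Unlike Cdk4, Cdk6 was not higher in the induced bulge (log2 ratio -0.41, -0.96 to 0.14, and 0.16 without likely doublets). In cycling cells Cdk6 stood at 52.6 CPM (157 UMIs) in the control and 33.5 CPM (64 UMIs) in the induced library, a log2 ratio of -0.65 (-1.10 to -0.23). That difference was -0.22 when cells with 5000 or more detected genes were kept, -0.27 after thinning and -0.57 without likely doublets, all within 1.5-fold. Krt1/Krt10-gated cells held 50.9 and 57.7 CPM, and hair germ-like cells 42.7 and 54.5 CPM.

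Among the inhibitors, Cdkn1a (chr17:29090979-29100722), the p53-responsive p21 gene, was detected in most cells. Its level was highest in bulge-like cells, at 953 CPM in the control and 1020 CPM in the induced library, and next in Krt1/Krt10-gated cells, at 886 and 807 CPM. Hair germ-like cells held the lowest level in both libraries, 433 and 317 CPM, which put the bulge 2.20-fold above the germ in the control (log2 ratio of germ over bulge -1.14) and further above it in the induced library (-1.69). In the induced library the interval of cycling cells over the germ held 0 (log2 0.16, -0.04 to 0.36). Cdkn1a passed the 1.5-fold line in none of the 5 populations. It came closest in cycling cells, with 522 CPM (1558 UMIs) in the control and 353 CPM (676 UMIs) in the induced library, a log2 ratio of -0.56 (-0.70 to -0.43), and the mean over cells, which weights cells equally, gave -0.80. The hair germ ratio was -0.45 (-0.67 to -0.23), and -0.15 among cells with under 5% mitochondrial UMIs. Ly6a-gated cells stood at 557 and 494 CPM. Cells in which keratin 14 is not known to be made showed the same direction: T cell-like barcodes held 1010 and 596 CPM (-0.76, -0.95 to -0.56), where the top 5 cells carried 60.4% and 53.4% of the UMIs, and antigen-presenting barcodes held 458 and 388 CPM (-0.24, -0.46 to -0.02).

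Cdkn1b (chr6:134920401-134925525), the p27 gene associated with quiescence, was higher in the induced library in both follicle compartments. It stood at 40.5 CPM (36 UMIs) in control and 84.4 CPM (82 UMIs) in induced hair germ-like cells, a log2 ratio of 1.05 (0.48 to 1.67), and in bulge-like cells at 30.0 CPM (55 UMIs) and 56.4 CPM (155 UMIs), a log2 ratio of 0.90 (0.46 to 1.38). Its 3′ UTR, like that of Ccnd2, holds the seed match printed above, and in the hair germ these genes lay at opposite ends of the 8 ratios. Outside the follicle compartments Cdkn1b was low, with 14.8 and 12.8 CPM in Ly6a-gated cells and 8.54 and 11.5 CPM in Krt1/Krt10-gated cells. Cycling cells were intermediate, at 27.5 and 38.2 CPM. T cell-like barcodes were also higher in the induced library, at 124 and 172 CPM (0.47, 0.00 to 0.97), and antigen-presenting barcodes were not, at 50 and 37.3 CPM. The bulge ratio ranged from 0.27 after thinning to 1.58 among cells under 5% mitochondrial UMIs, and the hair germ ratio from 0.42 in those cells to 1.90 after thinning, positive throughout.

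Cdkn1c (chr7:143458339-143461059), the imprinted p57 gene, rested on few molecules. Bulge-like cells held 11 UMIs in the control and 31 in the induced library, 6.0 and 11.3 CPM, and the interval of the log2 ratio of 0.87 ran from -0.12 to 2.05. A few cells carried most of them, since the top 5 cells held 63.6% and 80.6% of these UMIs. Cycling cells held 14 and 8 UMIs, hair germ-like cells 3 and 9, Ly6a-gated cells 5 and 10, and Krt1/Krt10-gated cells 1 and 4, the last 3 below the minimum.

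Cdkn2b (chr4:89306289-89311032), which encodes the TGF-beta-responsive inhibitor p15, met the count minimum only in Krt1/Krt10-gated cells. There it had 6 UMIs in the control and 20 in the induced library, 2.44 and 9.22 CPM, a log2 ratio of 1.84 (0.55 to 3.52), and the top 5 cells held 83.3% and 55.0% of them. Bulge-like cells held 3 UMIs in each library, hair germ-like cells 2 and 3, Ly6a-gated cells 5 and 9, and cycling cells 10 and 3. At this depth no order of its levels could be read in the follicle.

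Myc (chr15:61985341-61990361) had its highest level in bulge-like cells, at 460 CPM (843 UMIs) in the control and 569 CPM (1564 UMIs) in the induced library. Hair germ-like cells followed at 230 and 212 CPM, and cycling cells at 170 and 143 CPM. The bulge level exceeded the germ level by close to 2-fold in the control (log2 ratio of germ over bulge -0.99) and by more in the induced library (-1.42). No population passed the 1.5-fold line for Myc. The largest ratio was that of Ly6a-gated cells, 97.2 CPM in the control and 134 CPM in the induced library, 0.46 (0.32 to 0.61), followed by bulge-like cells at 0.31 (0.19 to 0.43), and both intervals lay above 0. Krt1/Krt10-gated cells stood at 98.1 and 99.2 CPM. The hair germ ratio of -0.12 (-0.41 to 0.17) turned to 0.68 among cells under 5% mitochondrial UMIs, which left 26 control and 18 induced cells, and to 0.16 with the lower Lgr5 minimum.

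Summed counts do not say how many cells carry a gene, so every cell was thinned to 5000 UMIs, and shallower cells, at most 7 per keratinocyte population and library, were left out. In bulge-like cells a Ccnd3 UMI was found in 16.4% (11.1 to 22.9, exact Clopper-Pearson interval) of 165 control and 31.2% (25.6 to 37.3) of 253 induced cells, and a Cdk4 UMI in 18.2% and 29.6%. Without thinning these shares were 28.8% and 50% for Ccnd3 and 37.1% and 50.4% for Cdk4. T cell-like barcodes, which can make both genes, held a Ccnd3 UMI in 29.2% and 39.2% and a Cdk4 UMI in 37.5% and 19.6%, and antigen-presenting barcodes in 9.09% and 16.2% and in 4.55% and 8.11%, respectively. The bulge shares of Ccnd3 thus lay below the T cell-like share of the same library in both, and that of Cdk4 lay below it in the control and above it in the induced library. The Ccnd1 and Cdkn1b shares in the bulge were closer, at 15.2% and 20.6% for Ccnd1 and at 18.8% and 20.9% for Cdkn1b, with overlapping intervals, although their summed levels differed about 2-fold. Without thinning they were 23.5% and 36.9%, and 24.1% and 38.8%.

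In hair germ-like cells, 69 per library after thinning, a Cdkn1b UMI was found in 8 control cells (11.6%, 5.14 to 21.6) and 24 induced cells (34.8%, 23.7 to 47.2). The unthinned shares were 37.1% and 58.0%. Ccnd2 went the other way, in 16 control and 9 induced cells, with overlapping intervals, as did Ccnd1, in 29 and 22 cells. Cdkn1a was found in 81.2% (69.9 to 89.6) of control and 60.9% (48.4 to 72.4) of induced germ cells, and in 80.1% (72.7 to 86.3) of control and 58.4% (47.5 to 68.8) of induced cycling cells. In bulge-like cells it was found in 86.7% and 79.4% while the mean per thinned cell was 4.61 and 4.94 UMIs, so the mean and the share differed in opposite directions. Myc was found in 79.4% and 77.1% of bulge-like cells and in 60.9% and 49.3% of hair germ-like cells.

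**Figure D3:**
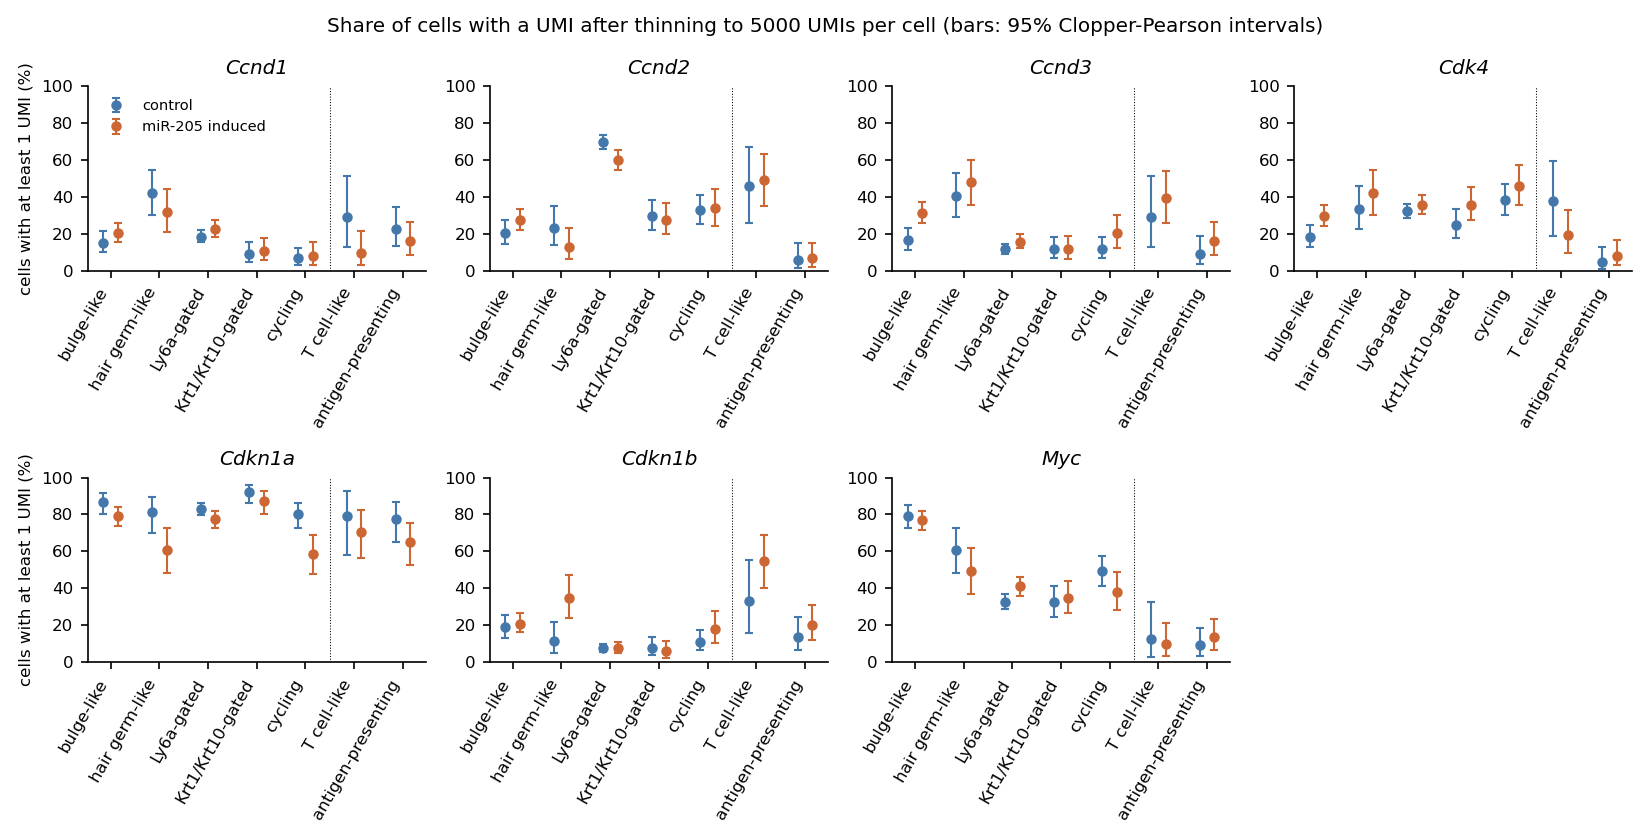
Share of cells with at least 1 UMI after thinning to 5000 UMIs (y axis, percent, with 95% Clopper-Pearson intervals) for 7 of the genes in the 5 keratinocyte populations and, right of the dotted line, T cell-like and antigen-presenting cells of the control (blue) and induced (orange) library. The Cdkn1b share in hair germ-like cells is 11.6% in the control and 34.8% in the induced library, and the Cdkn1a share in cycling cells is 80.1% and 58.4%.

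Immune barcodes of the same libraries gave a level to compare with, since lymphocytes are known to lack Ccnd1; they can make most of the other genes. A Ccnd1 UMI was found in 29.2% (12.6 to 51.1) of 24 control and 9.8% (3.26 to 21.4) of 51 induced T cell-like barcodes after thinning, and in 22.7% and 16.2% of 66 and 74 antigen-presenting barcodes. Thinning left out 24 control and 36 induced T cell-like barcodes. The control bulge-like share of Ccnd1 lay below both immune shares of its library, so it does not stand out from them. The induced share of 20.6% (15.7 to 26.1) lay above both immune shares of its library, with overlapping intervals. The hair germ-like shares of 42.0% (30.2 to 54.5) and 31.9% (21.2 to 44.2) lie above all 4 immune values. The control germ interval overlaps those of both control immune types, and the induced germ interval overlaps all 4 immune intervals. Unthinned median depths were 4904.5 and 5195 UMIs in T cell-like and 9234 and 10398 UMIs in antigen-presenting barcodes, against 10388 and 10307 in the bulge. Cycling cells, at 6.85% and 7.87%, fell below the immune shares, so Ccnd1 was not found at a like share in all cell types. The immune shares therefore set no floor. The top 5 T cell-like barcodes held 53.6% and 68.8% of their Ccnd1 UMIs, and the top 5 antigen-presenting barcodes 55.0% and 46.4%. By summed level, Ccnd1 stood at 63.1 CPM (28 UMIs) and 23.8 CPM (16 UMIs) in T cell-like barcodes (log2 ratio -1.39, -2.39 to -0.47) and at 81.1 and 61.4 CPM in antigen-presenting barcodes (-0.40, -0.95 to 0.15), the direction seen in the hair germ. Myc, at 9.09% to 13.5% in the immune barcodes, lay far below its keratinocyte shares. The Cdkn1b share in control hair germ-like cells lay below that of either control immune type (33.3% and 13.6%), and that in induced germ cells lay between those of the induced types (54.9% and 20.3%). Cdkn1a was found in 64.9% to 79.2% of immune barcodes, below both bulge-like shares and above those of induced germ and cycling cells. Since immune cells can make most of these genes, these Cdkn1a shares set no background level.

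**Figure D4:**
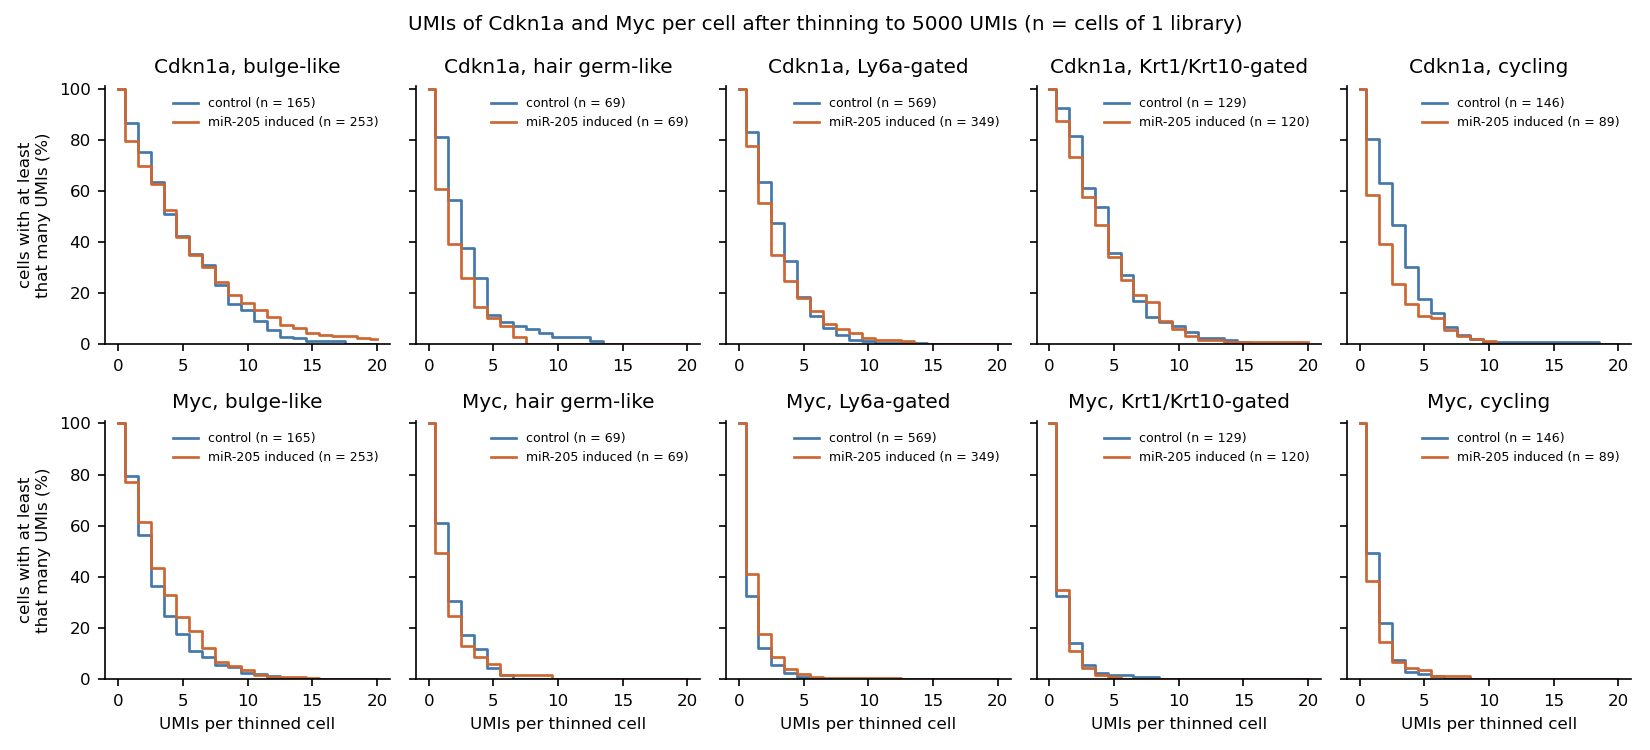
Percentage of cells (y axis) with at least the number of UMIs on the x axis (drawn to 20) for Cdkn1a (top) and Myc (bottom) after thinning to 5000 UMIs, in control (blue) and induced (orange) cells of each population. In hair germ-like and cycling cells the induced Cdkn1a curve starts lower, at 60.9% and 58.4% of cells with 1 UMI or more against 81.2% and 80.1%, and the bulge Myc curves start together at 79.4% and 77.1%.

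The remaining machinery of the pathway was summarised from gene lists, whose counts are to be read against the shares over all genes: 14.2% higher and 6.89% lower in the bulge, and 15.8% and 15.3% in the hair germ. Genes are named among those with at least 50 UMIs. Of the other G1 to S genes, 3 of 16 measured were higher and 1 was lower in bulge-like cells, and 4 of 12 were higher and 2 lower in hair germ-like cells. Cdkn2d, which encodes the INK4 inhibitor p19, was higher in the induced library in both compartments, with 16.9 and 35.7 CPM in the bulge (log2 ratio 1.06) and 18 and 38.1 CPM in the hair germ (1.06). Its ratios were also positive in Ly6a-gated (0.36), Krt1/Krt10-gated (0.61) and cycling cells (0.53), with intervals above 0. In the bulge the retinoblastoma relative Rbl2 followed at 1.00 and the CDK-activating kinase gene Cdk7 at -0.66. In the hair germ Cks1b, an adaptor that helps target p27 for destruction, stood at 65.2 and 28.8 CPM (-1.16), and the cyclin gene Ccni at 85.4 and 153 CPM (0.84). Of E2F family members and targets 5 of 14 were higher and none lower in the bulge. Among them were Rrm2 at 1.00 (16 and 49 UMIs) and Tfdp2 at 0.68 (18 and 44 UMIs, -0.11 to 1.58). The better counted Pcna (-0.06) and Slbp (0.20) were within 1.5-fold there, and the summed level of the list was 309 and 333 CPM. In the hair germ 1 of 10 was higher, Slbp (0.96), and 4 were lower, among them Pcna at 108 and 64.8 CPM (-0.73). In cycling cells 0 of 25 were higher and 2 lower, where 10.1% of all genes were higher and 8.48% lower. The median log2 ratio of the list was -0.34 there, and that of all genes was -0.01.

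Around Myc, the MAX network had 4 of 9 genes higher and none lower in the hair germ, including the MYC antagonist Mxd4 at 46.1 and 84.4 CPM (0.86) and, named after its values were seen, the MYC paralogue Mycn with 1 and 20 UMIs (3.65, 1.55 to 9.57), and 0 of 10 higher and 1 lower in the bulge. Of genes known to be induced by MYC, 6 of 28 were lower and 2 higher in the hair germ, with a median log2 ratio of -0.35 where that of all genes was -0.02. The share of MYC-induced genes that were lower in the germ, 6 of 28, is to be read against 15.3% of all genes. Odc1, the first enzyme of polyamine synthesis, stood at 499 CPM (444 UMIs) in the control and 107 CPM (104 UMIs) in the induced germ, a log2 ratio of -2.22 (-2.54 to -1.91), and the nucleolar gene Nop56 (-1.03) and the nucleotide kinase gene Nme1 (-0.80) followed. The top 5 cells held 43.0% of the Odc1 UMIs in the control. The better counted Npm1, named after its values were seen, was higher in the induced germ. It stood at 996 CPM (886 UMIs) in the control and 1650 CPM (1606 UMIs) in the induced library, 0.73 (0.61 to 0.85). In bulge-like cells 1 of 29 was higher and none lower, with Apex1 at 0.97, Phb at 0.58 and Nolc1 at -0.50.

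Inputs to the inhibitors were counted against the same shares over all genes. Of p53 targets 3 of 20 were higher and 5 lower in the bulge, with Trp53inp1 at 30.0 and 79.3 CPM (1.39), Plk2 at 115 and 29.1 CPM (-1.97) and Gadd45a at 117 and 56.4 CPM (-1.05), and 3 of 17 were higher and 3 lower in the hair germ, where Ddit4 (2.19) and Btg2 (1.42) were higher and Trp53inp1 (-0.69) was lower. Cdkn1a, itself a p53 target, had log2 ratios of 0.10 and -0.45 there. In the hair germ few cells carried much of the named genes. The top 5 control and induced cells held 66.7% and 62.9% of Ddit4, 48.5% and 44.7% of Btg2, and 55.7% and 63.4% of Trp53inp1 UMIs. Of FOXO, TGF-beta and quiescence genes 1 of 18 was higher and 4 lower in the bulge, and 2 of 18 were higher and 2 lower in the hair germ. Txnip, a glucose-sensitive gene that restrains growth, was higher in both, with 48.0 and 130 CPM in the bulge (1.43) and 37.1 and 261 CPM in the hair germ (2.80, 2.29 to 3.39). It was also higher in Ly6a-gated (1.06), Krt1/Krt10-gated (0.82) and cycling cells (1.40), so this was not particular to the follicle compartments. Skil (-0.83) and the TGF-beta receptor gene Tgfbr2 (-0.63) were lower in the bulge, and Foxc1 (-1.04) and Tgfbr2 (-0.77) in the hair germ.

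Summed levels of immediate early and dissociation stress genes were higher in the induced library in every population, most of all in hair germ-like cells. There 12 of 22 were higher in the induced library and none was lower, their median log2 ratio was 0.87, and their summed level was 13300 CPM in the control and 22500 CPM in the induced library, led by Socs3 (1.86), Dusp1 (1.82) and Fos (1.77). The top 5 cells held 77.9% of the Fos UMIs in the control and 33.8% in the induced library. In bulge-like cells 3 of 22 were higher, with summed levels of 31200 and 35800 CPM, led by Socs3 (1.17), Hspa1a (0.95) and Hspa1b (0.69). In cycling cells 6 of 22 were higher (10.1% of all genes), with 12100 and 15500 CPM. Ly6a-gated cells had 4 of 22 higher (9.01% of all genes), with 9790 and 12200 CPM. Krt1/Krt10-gated cells had 2 of 22 higher (9.87% of all genes), with 9100 and 9920 CPM. Their part in the ratios of Ccnd1, Ccnd2, Cdkn1b and Cdk6 was not tested.

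For the 8 genes with at least 200 UMIs, the gene with the most similar level was sought over 10 points, the 5 populations in 2 libraries, among 7872 genes outside the marker lists. Cdkn1b followed Armcx1 (Pearson r = 0.982 of log2 CPM), Myc followed Arl4a (0.986), Cdk4 the mitochondrial chaperonin gene Hspe1 (0.974), and Cdkn1a the desmosomal plaque gene Dsp (0.973). Ccnd1 followed Zfyve9 (0.962), Ccnd3 the palmitoyltransferase gene Zdhhc8 (0.959), Ccnd2 the anthrax toxin receptor gene Antxr1 (0.937), and Cdk6 the mitochondrial enzyme gene Dlst (0.934). These values are the highest of many candidates, and the 10 points share libraries and depth, so they describe likeness in these libraries only.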

How the data were processed

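Cells from 1 control and 1 miR-205 induced mouse were analysed. The authors counted UMIs with Cell Ranger (software version 3.0.1 in the file headers) on mm10 per the submitters' processing notes and deposited raw counts, whole numbers without normalization. The libraries held 55465594 and 49733560 UMIs. The 10 genes and all lists were chosen with earlier results of these data known.

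Barcodes with more than 200 and fewer than 5000 genes and under 10% mitochondrial UMIs, the study's stated filter, were kept. Keratinocytes had at least 20 Krt14 and Krt5 UMIs per 10000 and at most 5 UMIs of other cell types. Cycling cells had at least 5 UMIs of Mki67, Top2a, Cenpf, Birc5, Ube2c and Cdk1. The other gates needed at least 2 UMIs of each required marker, except Krt10 with 5. Limits on Krt75, Fgf18, Krt79, Scd1, Mgst1 and Cst6 applied only to the hair germ-like and Ly6a-gated cells. They did not apply to the bulge-like or Krt1/Krt10-gated cells. Krt17 and Krt6a, meant as further bars, were dropped because most keratinocytes carried them. UMI limits were set after the data were seen, as was the antigen-presenting gate (20 UMIs of Cd74, H2-Aa and H2-Ab1). T cell-like barcodes had at least 5 UMIs of T cell genes and low keratins. Doublets were kept, and 1 alternative left out the 165 and 145 highest Scrublet scores.

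Each gene's counts over the cells of a population were added up within a library and divided by that population's total. Log2 ratios used a pseudocount of 0.5 UMIs. Ratio intervals were exact conditional binomial, shares Clopper-Pearson, all 95%. The ratios were checked on counts simulated with counting error only, so that check says nothing on the spread between cells or mice. UMIs remove PCR copies, but intervals still cover counting error only. All 10 genes were named in every population, from each list up to 3 genes with the largest log2 ratio among those with at least 50 UMIs in bulge-like and hair germ-like cells, and for each gene with at least 200 UMIs the 1 most similar gene. Markers named as checks were chosen after their values were seen. Alternatives changed the filters, scaling, cell weights, gates and thinning, 10 planned and 1, the lowered marker minimums, added after seeing the data, and 2 further planned ones changed the count minimum behind the counts of genes. Python 3.11.15, numpy 2.4.6, scipy 1.17.1, pandas 2.3.3, scanpy 1.11.5 and matplotlib 3.10.9 were used. Coordinates of genes are RefSeq GRCm38.p6, and those of seed matches are GENCODE M1 on NCBIM37.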

Additional observations from a re-analysis of the deposited data

Results flagged for a closer look

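Ccnd1 was picked out because it differed in opposite directions in the neighbouring follicle compartments. Its log2 ratio of induced over control was 1.01 in bulge-like cells and -0.74 in hair germ-like cells, with counting intervals that exclude 0 in both. Across the 11 alternatives the bulge ratio lay between 0.48 and 1.22 and the hair germ ratio between -0.90 and -0.38. T cell-like and antigen-presenting barcodes, at -1.39 and -0.40, had the direction of the hair germ. With 1 library per group the difference between the compartments was not tested.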

How the results depend on the processing

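The 11 alternatives gave 464 values for 43 log2 ratios. Of these, 443 stayed within the counting interval of the reported ratio, 21 did not, and 21 changed sign, 7 of them among cells under 5% mitochondrial UMIs, a limit that left 57 and 66 bulge-like and 26 and 18 hair germ-like cells. The count of genes past 1.5-fold in bulge-like cells, 5 as reported, was 2 under that limit, 3 after thinning and 3 with marker minimums lowered by 1 UMI. In hair germ-like cells it was 3 as reported, 5 after thinning, 2 under 5% mitochondrial UMIs and 2 with lowered marker minimums. In Ly6a-gated cells it was 0 as reported, 1 after thinning, 1 with cycling cells kept in, 1 with lowered marker minimums and 2 with no count minimum. In Krt1/Krt10-gated cells it was 1 as reported, 0 under 5% mitochondrial UMIs, 0 with at least 100 UMIs and 2 with no minimum. In cycling cells it was 1 as reported, 2 under 5% mitochondrial UMIs, 3 as a mean over cells, 0 without likely doublets, 3 after thinning, 0 with lowered marker minimums and 2 with no minimum. The causes were not tested. No replicate could be left out. No paired analysis was possible because each group has 1 library. Genes with few UMIs, such as Cdkn1c and Cdkn2b, are limited by counting error.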
